A study of Simmondsia chinensis with 44 samples.

Results

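In jojoba (Simmondsia chinensis), the cotyledons of the seed fill with liquid wax esters instead of ordinary oil. The genes described here were low in early and mid seed, high in late seed, and still high in dry seed. Members were chosen by the time-course values alone. A gene was a member when its mean normalized counts, each with 1 added, met 3 conditions. The late and dry means were under 2-fold apart, the lower of them was at least 20, and it was at least 4-fold above the higher of the early and mid means. Of 23491 genes counted, 89 met the rule, so its limit of 200 genes was not reached. A normalized count is the read count divided by 1 factor per library, as deposited by the authors.

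The libraries came from germplasm line PARL# 940. A time course held whole developing seeds of an early, a mid and a late stage and dry seeds, with 6 libraries each. A dissection series from mid-stage seeds held seed coat, cotyledon, embryonic axis and whole seed, with 5 libraries each. The labels give no plant, pool or day for a library, so p-values reflect only how far libraries of a group differ, and that spread may be technical. Whether the coat was still on the dry seeds is not given either.

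In the last phase of seed development of many plants, reserve filling gives way to drying. Cells then make protective proteins and small stress proteins, and the embryo becomes able to survive without water. Transcription slows as the seed dries, and part of the mRNA made during maturation is stored in the dry seed, where it is available when water returns. The files do not pair gene identifiers with names or functions, so which proteins the 89 genes encode cannot be stated, and at most 2 identifiers are printed for each direction of a comparison. Gene lengths are not given either, so levels are compared between libraries and not between genes.

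A developing-seed library of the time course held 7713214 to 16014089 counts, a dry-seed library 15658880 to 23773845, and a dissection library 9882334 to 32758764. Late-seed libraries 4 and 6 stood apart from the other late libraries towards dry seed, and cotyledon libraries 1 and 5 stood apart towards whole seed. The members by the rule, the dry-to-late comparison over all members and the test calls involving cotyledon were also taken without them. The cotyledon share, the part of highest mean and the classes by seed coat level are given only with them.

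In the time course, the values chose the members, so they are a description and carry no test. The members took 0.148% ± 0.019 of all counts in early seed, 0.367% ± 0.069 in mid seed, 5.25% ± 1.31 in late seed and 5.55% ± 1.13 in dry seed (SD, n = 6 each). Few genes held most of this. The 3 members with the highest dry-seed means had 61.5% ± 2.4 of the member counts in late seed and 54.5% ± 3.2 in dry seed, and 21 members were needed to reach 90% in each of these stages. Without those 3 members the shares were 0.142% ± 0.019 in early and 0.252% ± 0.026 in mid seed. In late and dry seed the shares without them were 2.04% ± 0.59 and 2.51% ± 0.47. The rule requires a step of at least 4-fold in every member, so a step in the remaining ones was set in advance.

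**Figure D1:**
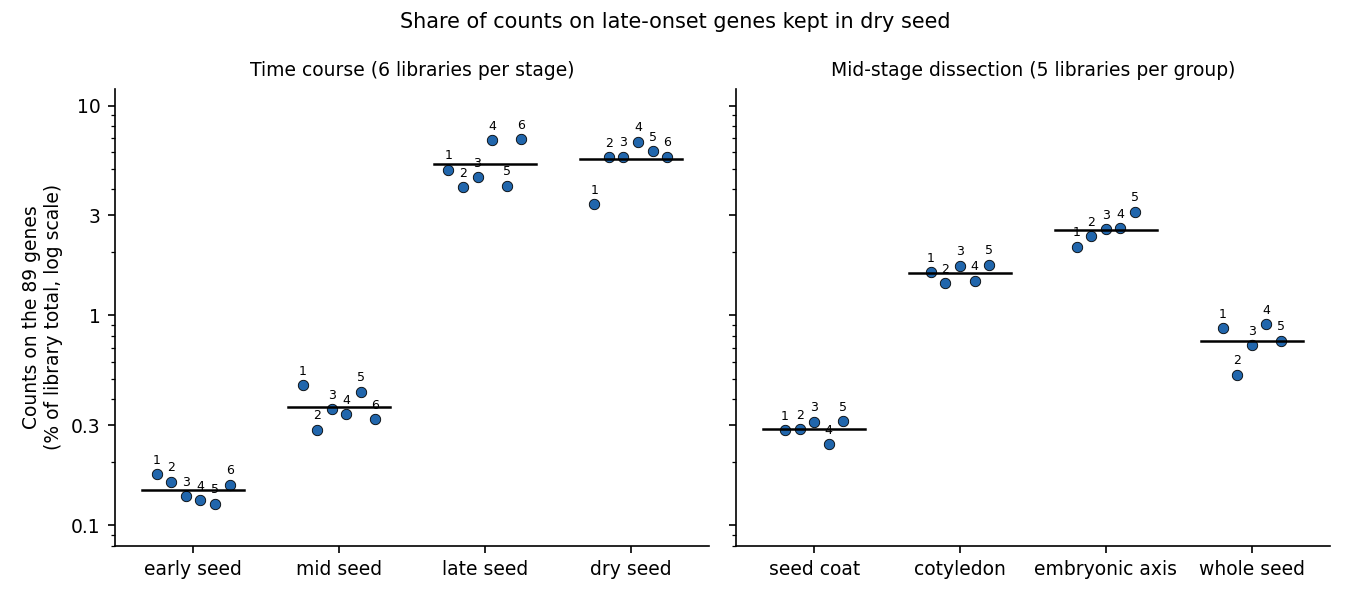
Each point is 1 library, numbered by replicate; the y axis is the percent of its counts on the 89 genes on a log scale, and the bars are group means. Late and dry libraries sit between 3.39% and 6.92%, above every early and mid library, and the axis libraries (2.13% to 3.12%) lie above the cotyledon libraries (1.42% to 1.74%) and the seed coat libraries (0.244% to 0.313%).

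The 2 members with the highest means in dry seed showed how differently an onset could run. Sc24g0003280 had 91.2, 159.9 and 203 normalized counts as lowest, median and highest in early seed, and 2463, 3589 and 8719 in mid seed. It had 72539.7, 138081 and 262166 in late seed, and 107818, 227324 and 398639 in dry seed. Its mid libraries already lay far above its early ones, and its late and dry libraries overlapped.

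Sc23g0000660 was low in early and mid seed of the time course. Cotyledon, axis and whole-seed libraries of the mid-stage dissection, described further on, held far more of it. Seed coat libraries did not, with a mean of 0.000755% of counts against 0.00119% in mid seed. The gene had 1 count in all early libraries together, and 96.9, 155 and 207 normalized counts as lowest, median and highest in mid seed. It had 156409, 226787 and 293137 in late seed, and 54088, 142266 and 171887 in dry seed. Its lower dry-seed values still overlapped the late ones. The ratio of its lower late or dry mean to its higher early or mid mean was 893.67, the largest of the 89.

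The size of the step varied widely. The lower of the late and dry means was 4.04-fold to 894-fold above the higher of the early and mid means, with a median of 6.71-fold. It was at least 8-fold in 35 members, at least 16-fold in 16 and at least 64-fold in 2. Each late library lay above each early and mid library in 82 of the 89, where 10.1% of the 22222 genes with a count did so, and each dry library in 81, where 19.9% of all genes did so. The rule fixes most of these counts, so nothing is read from them. In the remaining 7 and 8 members at least 1 library overlapped, although the means passed.

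The genes at the edges of the rule differed little from those left out. The largest folds between late and dry means inside the rule were 1.99 and 1.96, and the smallest outside it 2.01 and 2.04. The smallest onset folds were 4.04 and 4.08 inside, and the largest outside 3.996 and 3.98. For the lower of the late and dry means, the values nearest to 20 were 23.5 and 24.5 inside, and 18.4 and 18.1 outside. Of 246 genes with the onset alone, at least 4-fold and at a minimum of 20, the condition of under 2-fold between late and dry kept the 89.

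Within the 2-fold limit, 61 members had a higher mean in dry than in late seed and 28 a lower one, and the median ratio of dry to late was 1.25. In none of the 89 were the dry and late libraries separated without overlap, where 22.8% of all genes were higher and 29.1% lower in dry seed without overlap. The rule used this contrast, so the count is not a result. With unscaled CPM in place of the deposited normalization, the median log2 change of dry over late seed across 17936 genes moved by -0.12, and 54 members were higher in dry seed. With TMM scaling 64 were.

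Late-seed libraries were not alike for these genes. The share of counts on the members was 6.86% in late library 4 and 6.92% in library 6, and 4.94%, 4.09%, 4.55% and 4.16% in libraries 1, 2, 3 and 5. Library 4 held the highest late value of 36 members and library 6 of another 36, or 40.4% each, where they held the highest value of 16.7% and 22.5% of all genes with a count in late seed. Most members thus had their highest late value in the late libraries that stood nearest to dry seed. The rule used the late values of these libraries, so these counts are a description and not a result.

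The kept level therefore depended in part on those libraries. Without late libraries 4 and 6 the late share was 4.43% ± 0.39 (SD, n = 4), the median ratio of dry to late was 1.59, and 77 members were higher in dry seed. Then 13 members were higher in dry seed without overlap and none was lower, where 25.03% and 31.6% of all genes were. The 89 were chosen on dry and late means that included libraries 4 and 6, so these counts are a description. By the same rule without those libraries 66 genes passed, 58 of them among the 89.

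Dry-seed libraries varied too. Library 1 had a member share of 3.39% and the lowest dry value of 36 members, while library 4 had 6.72% and the highest dry value of 44. Library 4 thus held the highest dry value of 49.4% of members, against 24.1% of all genes with a count in dry seed. Library 1 held it for 2.25% of members and 22.1% of all genes. For the lowest value no share of all genes was computed. The rule used the dry values, so these counts are a description. The other dry libraries had member shares between 5.69% and 6.08%. Without library 1 the dry share was 5.99% ± 0.44 (SD, n = 5).

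**Figure D2:**
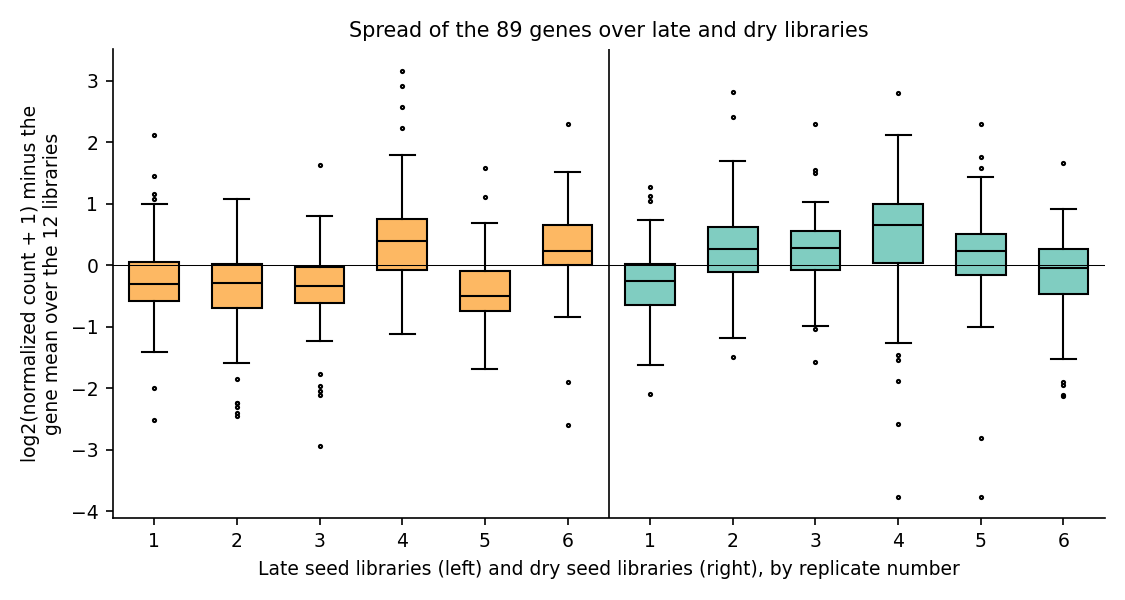
Boxes show, for each late library (left) and dry library (right), the 89 values of log2(normalized count + 1) minus the gene's mean over these libraries; the line is the median, the box the quartiles, and points lie beyond 1.5 box lengths. The boxes of late libraries 4 and 6 lie above those of the other late libraries, and the boxes of dry library 1 and of late libraries 1, 2, 3 and 5 lie mostly below 0.

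No part was dissected from late or dry seed, so where the members were present after their onset is not known. Where they were present at the mid stage was read from the dissection series, which the rule did not use. All 89 had a count there, and every gene with at least 1 count was tested, 22130 in all, since a filter on low values could favour members that are high in 1 tissue. A filter on low counts would have kept 86 members. By share of counts the members took 0.288% ± 0.028 of seed coat, 1.59% ± 0.15 of cotyledon, 2.56% ± 0.36 of embryonic axis and 0.755% ± 0.152 of whole seed (SD, n = 5 each). The highest of the dissected means was in the axis for 53 members, in cotyledon for 23 and in seed coat for 13. At least 2-fold above both other parts, 16 were preferred in axis, 6 in cotyledon and 3 in seed coat, and 64 had no such preference. The shares of all genes in these classes were not computed, so these counts by part are a description.

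Most members were lower in seed coat than in cotyledon at the mid stage, although 86 of the 89 had at least 1 count in seed coat. Of the 89 members, 55 were lower in seed coat than in cotyledon and 7 were higher, in the edgeR quasi-likelihood fit with an adjusted p under 0.05. Over all genes tested 26.9% were lower and 22.7% higher, so 61.8% of members stood against 26.9% of genes. At least 2-fold, 50 members were lower and 3 higher, against 15.4% and 11.2% of all genes. The remaining 27 members did not pass the test.

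The median log2 difference of seed coat minus cotyledon was -1.84 over the members and -0.02 over all genes. With the 3 members that had no count in any seed coat library set to a floor of 3 counts per library, the median was -1.63. The seed coat libraries lay below the cotyledon libraries without overlap in 47 members and above them in 3, against 16.1% and 14.6% of all genes.

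Members higher in seed coat than in cotyledon were few and their number was not firm. Without cotyledon library 5 there were 13, and without cotyledon libraries 1 and 5 there were 14, in place of 7. These were 14.6% and 15.7% of members, against 25.1% and 25.6% of all genes, so the members' share stayed below that of all genes, as with all libraries. The 58 genes other than members that were at least 64-fold higher in seed coat than in axis, a list made after the data were seen, took 0.0132% of counts in cotyledon library 5 and 0.00652% to 0.01002% in the other cotyledon libraries, against 2.69% to 3.24% in seed coat. Among the cotyledon libraries, coat-marked transcripts were thus highest in library 5. Their part in these calls was not tested.

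Sc15g0000990 had the largest deficit in seed coat against cotyledon. Its normalized counts were 0.634, 1.56, 0, 1.81 and 2.74 in seed coat libraries 1 to 5, against 1573, 1867, 2834, 2057 and 1777 in the cotyledon libraries. The fitted log2 difference was -10.49 ± 0.42 (SE; edgeR adjusted p = 1.39e-14). All seed coat libraries together held 7 reads of this gene.

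Sc17g0006120 came next. It had 3.17, 7.03, 2.47, 1.81 and 11.0 normalized counts in seed coat, against 4295, 5600.4, 5050.2, 5344 and 5617 in cotyledon. The log2 difference was -10.04 ± 0.46 (SE; edgeR adjusted p = 7.56e-14). In both genes every seed coat library lay far below every cotyledon library.

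The opposite pattern was smaller in size. Sc13g0010240 had 2872, 2537, 3091, 2196 and 2895 normalized counts in seed coat, against 723, 498, 569, 311 and 796 in cotyledon, a log2 difference of 2.22 ± 0.22 (SE; edgeR adjusted p = 3.45e-08). Sc07g0000930 had 2113, 1818, 2307, 2263 and 1804 in seed coat, against 535, 352, 303, 149 and 949 in cotyledon, a log2 difference of 2.15 ± 0.35 (SE; edgeR adjusted p = 2.76e-05). In both genes cotyledon library 5 was the highest cotyledon library and still lay below every seed coat library.

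The embryonic axis, which becomes the root and shoot of the seedling, was also the higher side for most members. Of the members, 60 were lower in seed coat than in axis and 11 were higher, against 31.4% and 25.7% of all genes tested. At least 2-fold, 53 were lower and 7 higher, against 19.9% and 14.2% of all genes. The median log2 difference was -2.48 over the members and -0.15 over all genes, or -2.06 over the members with the 3 genes at 0 in seed coat set to their floor. The seed coat libraries lay below the axis libraries without overlap in 53 members and above them in 10, against 25.3% and 21.1% of all genes.

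Sc06g0001070 and Sc25g0004860 had the largest deficits in seed coat against axis. Sc06g0001070 had 15.2, 46.9, 12.3, 20.8 and 39.8 normalized counts in seed coat, against 29615, 31037, 24837, 30169 and 33219 in axis, a log2 difference of -10.12 ± 0.44 (SE; edgeR adjusted p = 3.43e-14). Sc25g0004860 had 4.44, 18.0, 2.47, 5.44 and 11.0 in seed coat, against 6837, 8569.9, 8785, 10031 and 11989 in axis, a log2 difference of -10.10 ± 0.45 (SE; edgeR adjusted p = 4.12e-14). Every seed coat library lay far below every axis library in both genes. The seed coat libraries together held 146 reads of Sc06g0001070 and 46 of Sc25g0004860.

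Sc17g0006630 had the largest excess in seed coat over axis. It had 408, 441, 690.4, 319.9 and 821 normalized counts in seed coat, against 49.4, 89.3, 116, 44.9 and 55.5 in axis, a log2 difference of 2.90 ± 0.45 (SE; edgeR adjusted p = 1.04e-05). Sc13g0010240 followed with a log2 difference of 2.81 ± 0.23 (SE; edgeR adjusted p = 7.40e-10), from 2718 ± 353 in seed coat and 384 ± 97 in axis (SD, n = 5 each). It was therefore higher in the coat than in either part of the embryo.

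Across both comparisons, 53 members were lower in seed coat than in both cotyledon and axis, where 19% of all genes tested were, and 7 were higher than in both, where 16.8% were. Of the 3 members with no count in any seed coat library, the one with the highest embryo means was at least 17.6-fold lower in seed coat than in cotyledon and at least 36.5-fold lower than in axis, against the floor of 3 counts per library. Another was at least 2.66-fold and 9.01-fold lower. The last had means of 0.474 in cotyledon and 0.636 in axis, below that floor, so no deficit in seed coat can be read for it. In 11 members none of the tissue comparisons passed, and a p that misses the threshold does not show equal levels.

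**Figure D3:**
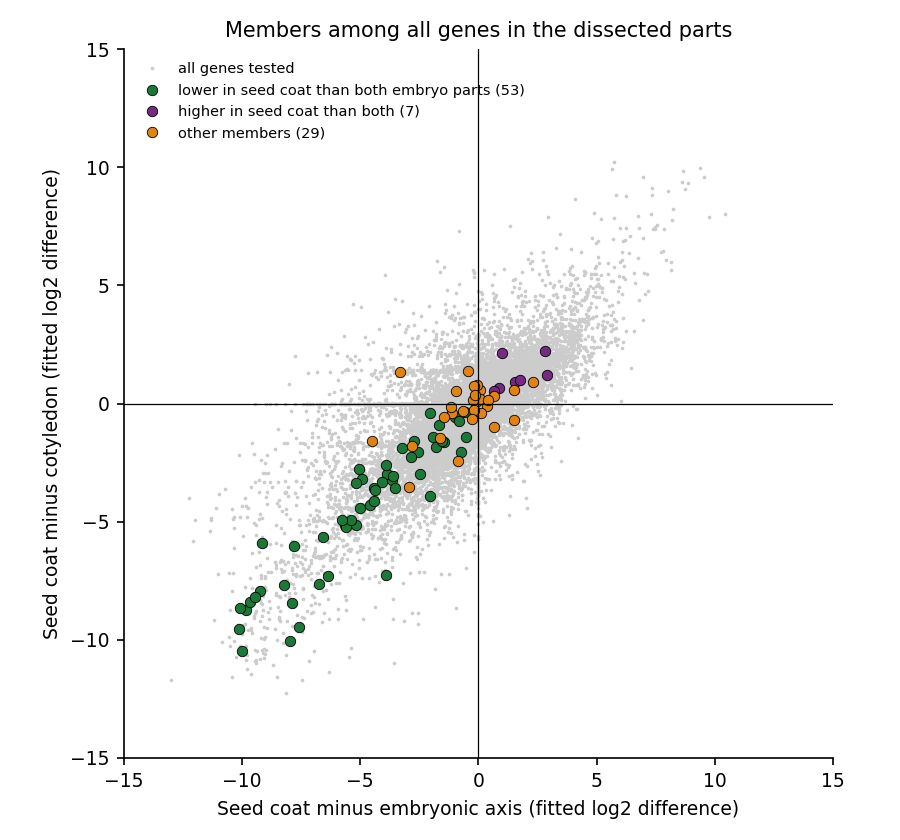
Fitted log2 differences of seed coat minus embryonic axis (x) and seed coat minus cotyledon (y) for all 22130 genes tested (grey) and the 89 members (coloured by their calls at an adjusted p under 0.05). The 53 members called lower in seed coat than both embryo parts run down to about -10 on both axes, and the 7 called higher lie above 0 on both.

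Between the embryo's own parts the members were divided. Of the 89, 14 were higher and 29 lower in cotyledon than in axis, against 18.7% and 18.2% of all genes tested, and 46 did not pass. The share of members higher was close to that of all genes, and 32.6% were lower. At least 2-fold, 8 were higher and 19 lower, against 8.35% and 9.05% of all genes. The median log2 difference was -0.43 over the members and -0.04 over all genes. The cotyledon libraries lay above the axis libraries without overlap in 8 members and below them in 21, against 11.7% and 14.6% of all genes. Without cotyledon libraries 1 and 5, 10 members were higher and 21 lower by the test, against 17% and 19% of all genes. The share of members lower in cotyledon was then 23.6%, near that of all genes, so most of the excess seen with all libraries was gone in that fit, which had 3 cotyledon libraries.

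Sc06g0009530 and Sc17g0006120 had the largest excess in cotyledon. Sc06g0009530 had 671, 618, 1749, 1335 and 1341 normalized counts in cotyledon, against 78.5, 163, 126, 54.8 and 134 in axis, a log2 difference of 3.33 ± 0.43 (SE; edgeR adjusted p = 2.33e-06). Sc17g0006120 had the cotyledon values given above, against 830.1, 1455, 1360.5, 1100.3 and 1407 in axis, a log2 difference of 2.06 ± 0.29 (SE; edgeR adjusted p = 7.11e-06). Both were near 0 in seed coat, at 7.60 ± 4.18 and 5.09 ± 3.86 (SD, n = 5 each).

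Sc11g0007610 and Sc03g0009320 had the largest deficit in cotyledon. Sc11g0007610 had 1.14, 8.30, 7.11, 4.11 and 0 normalized counts in cotyledon, against 78.5, 103, 79.8, 115 and 96.9 in axis, a log2 difference of -4.67 ± 0.67 (SE; edgeR adjusted p = 1.08e-05). Sc03g0009320 had 30.8, 18.3, 47.4, 11.3 and 84.3 in cotyledon, against 472, 419, 372, 240.0 and 366 in axis, a log2 difference of -3.27 ± 0.65 (SE; edgeR adjusted p = 3.79e-04). Without cotyledon library 5, the highest of its group, the difference of Sc03g0009320 was -3.88.

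The pair highest in dry seed was also lower in seed coat than in the embryo. Sc24g0003280 had 125, 230.5, 94.9, 123 and 373 normalized counts in seed coat, against 57535, 51596, 58223, 37741 and 72829 in cotyledon and 105543, 124083, 107852, 175403 and 151124 in axis. It was lower in seed coat than in cotyledon by a log2 difference of -8.20 ± 0.49 and lower in cotyledon than in axis by -1.26 ± 0.36 (SE; edgeR adjusted p = 5.97e-12 and 0.00800). Against axis, the seed coat difference was -9.47 ± 0.51 (SE; edgeR adjusted p = 1.01e-12), and the libraries of the 3 parts did not overlap.

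Sc23g0000660 was uneven among the axis libraries. It had 26.0, 42.2, 152, 15.4 and 399 normalized counts in seed coat, against 25481, 22335, 29616, 11497 and 34592 in cotyledon and 3819.6, 23895, 58843, 13321 and 84576 in axis. It was lower in seed coat than in cotyledon by a log2 difference of -7.66 ± 1.03 (SE; edgeR adjusted p = 2.22e-06), or -8.76 without seed coat library 5. Cotyledon against axis did not pass the test, at a log2 difference of -0.59 ± 0.76 (SE; edgeR adjusted p = 0.575).

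Whole seed of the dissection series fell between the parts for most members. Its mean lay within the range of the dissected means in 83 of the 89, below all of them in 5 and above all in 1. The 58 coat-marked genes took 1.36% ± 0.23 of its counts, against 2.998% ± 0.235 of seed coat counts (SD, n = 5 each). In a whole seed, fewer cells of a tissue and less RNA per cell cannot be told apart.

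The mid-stage whole seeds of the dissection series and the mid seeds of the time course had different member shares. The members took 0.521% to 0.909% of counts in the 5 whole-seed libraries and 0.285% to 0.465% in the 6 mid-seed libraries, with no overlap. Sc23g0000660 stood at 0.0258% ± 0.0217 of counts in whole seed (SD, n = 5) and 0.00119% ± 0.00029 in mid seed (SD, n = 6). These are shares of each library's own read counts, so the normalization does not enter them. The 2 series are separate sets of libraries, and this difference was not tested.

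The tissue pattern and the time course were then set side by side, with classes drawn after the values were seen and no test. In 48 members the seed coat mean, with 1 added, was at least 4-fold below the higher of the cotyledon and axis means. In 28 it was lower by less than 4-fold, and in 13 it was at or above both. The 48 coat-poor members carried most of the counts, 4.52% ± 1.2 of the total in late seed and 4.73% ± 1.04 in dry seed. The 28 took 0.573% ± 0.141 and 0.652% ± 0.140 in these stages, and the 13 took 0.155% ± 0.028 and 0.169% ± 0.034 (SD, n = 6 each).

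Higher mid than early means were found mostly among the coat-poor members. The mid mean was at least 2-fold above the early mean in 31 of the 48 coat-poor members, in 2 of the 28 and in none of the 13. The median ratio of mid to early was 2.97, 1.09 and 0.92 in these classes. The classes and this ratio both use mid-stage levels, from separate libraries. The share of all genes in each class with such a ratio was not computed, so the difference between classes is a description. Over all 89 members the mid libraries lay above the early ones without overlap in 28 and below them in none, where 12.7% and 14% of all genes did so. The rule limits both means from above, so this count is a description.

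**Figure D4:**
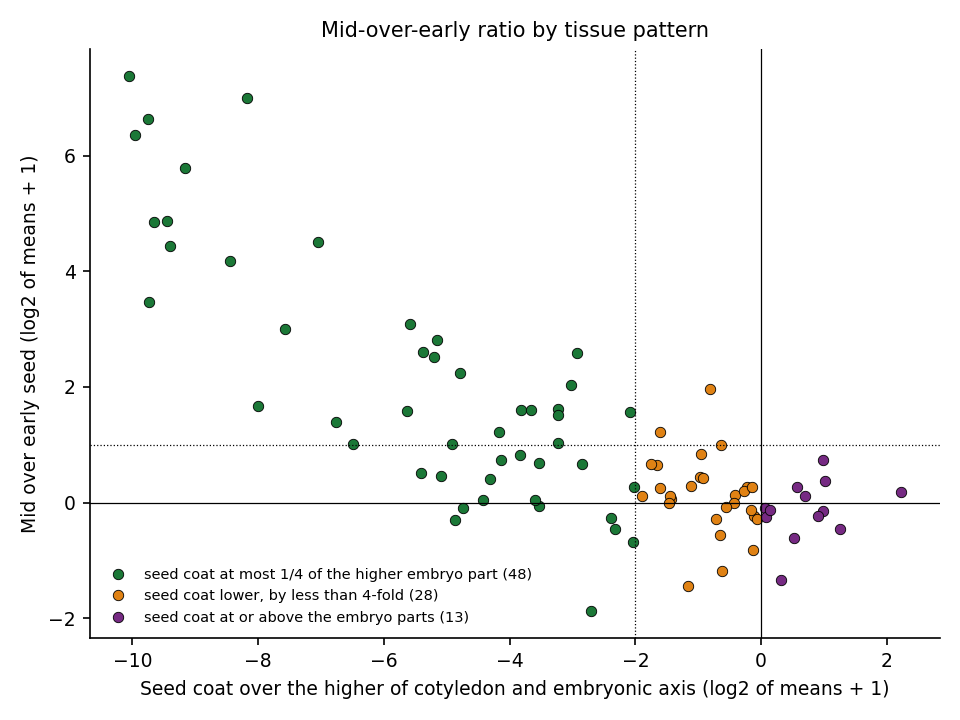
Each point is 1 of the 89 genes; x is seed coat over the higher of cotyledon and embryonic axis, y is mid over early seed, both as log2 of means with 1 added. The dotted lines mark 4-fold below (x) and 2-fold above (y). The ratio on y reaches 166 among the 48 coat-poor genes and 1.66 among the 13 at or above the embryo parts.

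Transcripts that marked the seed coat were lower in the later stages. The 58 coat-marked genes took 0.891% ± 0.331 of counts in early seed, 0.821% ± 0.132 in mid seed, 0.248% ± 0.034 in late seed and 0.0200% ± 0.0050 in dry seed (SD, n = 6 each). Late libraries 4 and 6 had 0.223% and 0.275%, within the range of 0.193% to 0.277% of the other late libraries. The part of this change in the members' onset was not tested. The median onset was 4.94-fold in the 13 members with seed coat levels at or above the embryo parts, and 7.17-fold in the 48 coat-poor members. The rule sets at least 4-fold for every member, so these medians are a description.

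Between late and dry seed, each class held members of both directions. The dry mean was above the late mean in 35 of the 48 coat-poor members, in 17 of the 28 and in 9 of the 13, with median ratios of dry to late of 1.36, 1.10 and 1.27. All lie within the 2-fold limit of the rule.

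**Figure D5:**
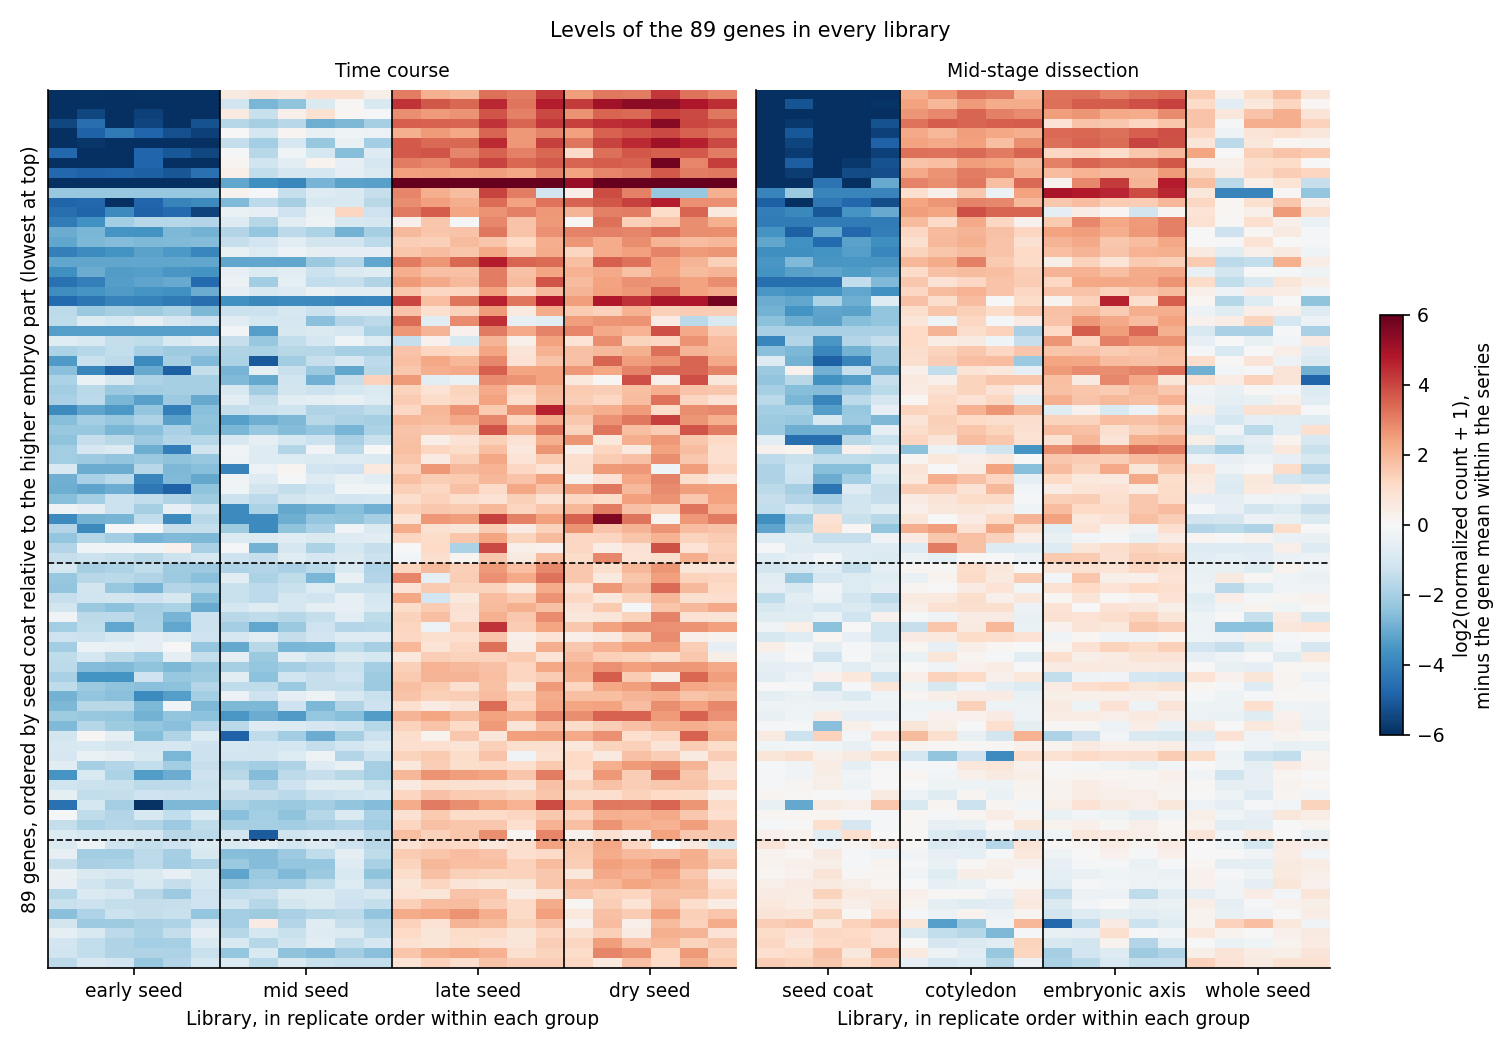
Colour is log2(normalized count + 1) minus the gene's mean within each series; rows are the 89 genes, ordered by seed coat relative to the higher embryo part, and columns are libraries. Dashed lines part the 48, 28 and 13 genes of the classes. The top rows are lowest in seed coat and early seed, and the 13 bottom rows hold the genes with seed coat means at or above both embryo parts.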

How the data were processed

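RNA-seq of 44 jojoba seed libraries was used, 24 from the time course and 20 from the dissection series. Per the labels, RNA came from a hot-borate extraction and a stranded mRNA kit, and Trimmomatic, STAR and DESeq2 are named, without versions, per the submitters' processing notes. How reads were counted, on which genome build and whether by strand is not given in the sources used here. Near-identical copies and overlapping antisense genes could share reads, so single-gene values are uncertain to that extent. The authors deposited raw read counts per gene. They also deposited these as normalized values, a signal relative to library size, and in each library 1 factor linked both (largest relative deviation 1.07e-09 and 1.1e-09); it matched DESeq2's median of ratios within each table.

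Levels and the rule use the normalized values. Tests used the counts in edgeR 4.0.16 (R 4.3.3): TMM, estimateDisp, glmQLFit and glmQLFTest, all genes with at least 1 count, 4 groups in 1 fit, and Benjamini-Hochberg adjustment over 22130 genes with a threshold of 0.05. The SE is the log2 difference divided by the square root of F. The test was checked on simulated counts. Replicate libraries all differed beyond counting noise (smallest chi-square over degrees of freedom 8.84 and 10.9 in the 2 tables). The members, and the lists and comparisons used, were chosen with earlier results of these data known. Named genes are the 2 members highest in dry seed and, per tissue comparison, the 2 largest log2 differences each way at a significant adjusted p, with no overlap and a higher group averaging at least 10. Alternatives were DESeq2 1.42.0 with its Wald test, other scalings, filterByExpr, a replicate block, only the groups compared, and libraries left out. Python 3.11.15 with pandas 2.3.3 made tables. Floors cover counting error only.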

Additional observations from a re-analysis of the deposited data

Results flagged for a closer look

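In 64 groups of libraries (the member share in each group, the pair highest in dry seed in all groups, and the other named genes in the dissection groups), 7 held a library farther from the rest than Dixon's 95% limit allows, where chance gives about 1 in 20. The member share of dry-seed library 1 was 3.39% of counts, against 5.69% to 6.72% in the other dry libraries. Sc23g0000660 in the same library had 54088 normalized counts, against 129503 to 171887 in the others. Of early libraries, library 3 had the single read of Sc23g0000660, at 1.02 normalized counts. Sc07g0000930 had 1939.9 normalized counts in embryonic axis library 3, against 696 to 945 in the other axis libraries. Whole-seed library 4 stood out for 2 genes. Sc06g0009530 had 704 normalized counts there, against 126 to 233 in the other whole-seed libraries, and Sc11g0007610 had 16.9, against 1.86 to 6.06. Sc03g0009320 had 2.34 normalized counts in seed coat library 2, from 3 reads, and none in the other seed coat libraries.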

How the results depend on the processing

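The rule gave 142 genes at 3-fold and 35 at 8-fold above early and mid seed, in place of 89. With 1 time-course library left out it gave 79 to 100 genes. On TMM CPM it gave 60, where a minimum of 20 is a higher bar, and 87 with the CPM rescaled to the deposited total, an alternative added after seeing the data, with 84 of the 89 among them. Members higher in seed coat than cotyledon numbered 6 to 13 with 1 library left out, and 14 without cotyledon libraries 1 and 5; the cause was not tested. Requiring 2-fold, which drops smaller calls by construction, left 3 of 7 members higher in seed coat than cotyledon, 7 of 11 higher in seed coat than axis, 8 of 14 higher and 19 of 29 lower in cotyledon than axis. Among the 66 genes of the rule without late libraries 4 and 6, 17 were lower in cotyledon than axis. Every other alternative run kept these counts within 1.5 times. For 18 gene comparisons, those each gene was named for and all 3 of the pair highest in dry seed, the 486 refits kept direction and side of the threshold. Other comparisons of named genes crossed it. In cotyledon against axis, the adjusted p over the alternatives ran between 0.00322 and 0.4997 for Sc13g0010240 (edgeR or DESeq2). It ran between 0.000184 and 0.293 for Sc17g0006630, and 0.0471 and 0.285 for Sc15g0000990 (edgeR or DESeq2). For Sc11g0007610 in seed coat against cotyledon it ran between 0.0353 and 0.455 (edgeR or DESeq2). Without the most counted member of each group the share was 0.289% in mid, 3.70% in late and 4.11% in dry seed, 0.226% in seed coat, 1.2% in cotyledon, 1.81% in axis and 0.591% in whole seed. Without the 3 members highest in dry seed it was 0.252% in mid, 2.04% in late and 2.51% in dry seed, 0.816% in cotyledon, 1.28% in axis and 0.497% in whole seed. On TMM-scaled CPM it was 0.124% in early seed, 7.02% in dry seed and 1.81% in cotyledon.

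The replicate numbers of the dissection series showed little pairing of its libraries in their values. Whether same-numbered libraries came from the same seeds is not given in the labels, and weak correlation cannot exclude it. Same-numbered libraries correlated over 0.1 in their deviations in 4 of 30 pairs (median 0.0103), and a library correlated best with its own number in 7 of 30. With the replicate block, 9 members were higher and 54 lower in seed coat than cotyledon, 10 and 60 against axis, and 11 and 28 in cotyledon against axis. A count of 0 limits a member to under the floor of 3 counts per library.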

Other observations

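The members carried 25 of the 27 number prefixes found in the identifiers, with at most 7 members on one. In 3 places members had consecutive identifiers in the files' list, in 2 pairs and 1 run of 3. Sc23g0000660 and its neighbour in the list formed one pair. The neighbour stood at 145 normalized counts in early seed, 198 in mid seed, 42594 in late seed and 77809.9 in dry seed (means of 6 libraries each), and at 103 in seed coat, 1025 in cotyledon and 3569 in embryonic axis (means of 5 each). The run of 3 had dry-seed means of 5599, 3031 and 3125 normalized counts and late-seed means of 3444, 4152 and 4085. All 3 had seed coat means less than 4-fold below the higher embryo part. Near-identical copies can share reads, so the split of counts between such neighbours is uncertain.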
